A study of Mus musculus with 8 samples.

Results

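Complement and coagulation factors are plasma proteins that the liver makes and secretes. The genes described here are 46 mouse genes for such factors. They were chosen by symbol from a fixed list, described as hepatocyte-made complement components, lectin pathway proteins, clotting factors and their inhibitors. Cfp is on the list, although its product is made largely by leukocytes. The rule used no measured value, although the list was drawn up with earlier results of these data known. All 46 were among the 17810 genes listed for these livers, and all 46 passed the filter on low counts, as did 12395 genes in all. The lowest value of any of them was 53 estimated counts, for Cfp in WT replicate 1.

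RNA-Seq was performed on livers of 4 WT and 4 HKO mice, the 2 genotypes compared. HKO mice carried miR-33 loxP/loxP alleles and a Cre recombinase driven by the albumin promoter, which deletes the microRNA miR-33 in hepatocytes, and WT mice were their littermates. Both genotypes were switched at 8 weeks of age from chow to CD-HFD, a high-fat diet lacking choline, for 3 months, so that all 8 livers came from steatotic mice 5 months old and none from mice on chow. Whether the WT littermates carried loxP alleles or Cre was not given in the sources used here. Total counts per liver ran from 12174339 to 18735785. Levels of the microRNA were not analysed here, and genotype rests on the labels.

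In the blood, complement and coagulation are 2 cascades of proteases that circulate as inactive precursors. Complement is started by antibody (classical pathway), by sugars on microbial surfaces (lectin pathway) or by spontaneous turnover of C3 (alternative pathway). All routes cleave C3 and then C5, and C5b, C6, C7, C8 and C9 assemble into a pore, the membrane attack complex. Coagulation runs from factor VII with tissue factor, or from factors XII and XI, through factor X to thrombin, which cuts fibrinogen into fibrin. Plasmin later dissolves the fibrin, and serpins such as antithrombin hold the proteases in check. Hepatocytes are the main source of most of these proteins, and fibrinogen is an acute phase protein that responds to interleukin-6 (IL-6) through STAT3. In this study the question was what the loss of hepatocyte miR-33 did to liver transcripts in diet-induced steatosis.

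The seed of the deleted microRNA (bases 2 to 8, in capitals) and the matches to it that lie in 3'UTRs of these genes are shown because they are the sites through which miR-33 could bind the transcripts directly. The mature sequence is from RefSeq on GRCm38.p6, at chr15:82198127-82198147 on the + strand.

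miR-33-5p: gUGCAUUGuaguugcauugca

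A 3'UTR of at least 50 bases was annotated for 45 of the 46 genes, and 6 of these (13.3%) held a match of 7 bases, against 16.2% of 11529 tested genes. The median 3'UTR was 388 bases for these genes and 1214 bases for all, and the shares are not adjusted for this difference in length. A match was either CAATGCA, which pairs with bases 2 to 8, or AATGCAA, which pairs with bases 2 to 7 and has an A opposite base 1. The 7 matches are printed below with flanks, as the transcript reads (GRCm38 bases, T for U), with the match in capitals. For Serpinc1 the site lies beyond the end listed in the deposited table, in a longer annotated 3'UTR.

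C4bp, chr1:130635964-130635993, - strand: ttgcttttctgAATGCAAtgtgtacatttt
C8a, chr4:104817403-104817432, - strand: tgctctgagtaAATGCAAacccacaaaggc
Masp1, chr16:23452307-23452336, - strand: gaagatcagtgAATGCAAgcaacctttcct
Masp1, chr16:23451810-23451839, - strand: ttccccataaaAATGCAAacaaaatacaat
Mbl2, chr19:30239623-30239652, + strand: cattggttaccCAATGCAttctcttgtgaa
Serpinc1, chr1:161004778-161004807, + strand: aagcgctctgcCAATGCActttccctcact
Serpind1, chr16:17343187-17343216, + strand: gcacagatgttAATGCAActaatggttgtg

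The median log2 fold change of HKO over WT was 0.17 for the 6 genes with a match and 0.29 for the 39 without. Over all tested genes the medians were 0.02 with and 0.01 without a match. Of the 6, C8a rose and the others did not pass the edgeR test, while DESeq2 also called Serpind1 (adjusted p = 0.0204). Among all genes tested, 1.66% were higher by edgeR and 3.11% by DESeq2.

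In livers of HKO mice 11 of the 46 genes were higher and 0 were lower at an adjusted p under 0.05 (edgeR quasi-likelihood test, Benjamini-Hochberg adjustment over all genes tested). They encode 2 chains of complement C8 (C8a, C8b), the initiating protease C1r (C1ra), vitronectin (Vtn), the 3 fibrinogen chains (Fga, Fgb, Fgg), factors VII and XI (F7, F11), plasminogen (Plg) and the plasmin inhibitor α2-antiplasmin (Serpinf2). The 11 were 23.9% of these genes, and among all genes tested 1.66% were higher and 3.37% lower. The sign was positive for 43 of the 46, with a median log2 fold change of 0.28 against 0.01 for all genes. At an unadjusted p under 0.05 there were 30, all 30 of them higher in HKO, where 9.08% of all genes tested were higher at that threshold. The heat map of single livers shows the HKO columns redder in most rows, with the strongest colours in the terminal complement rows.

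**Figure D1:**
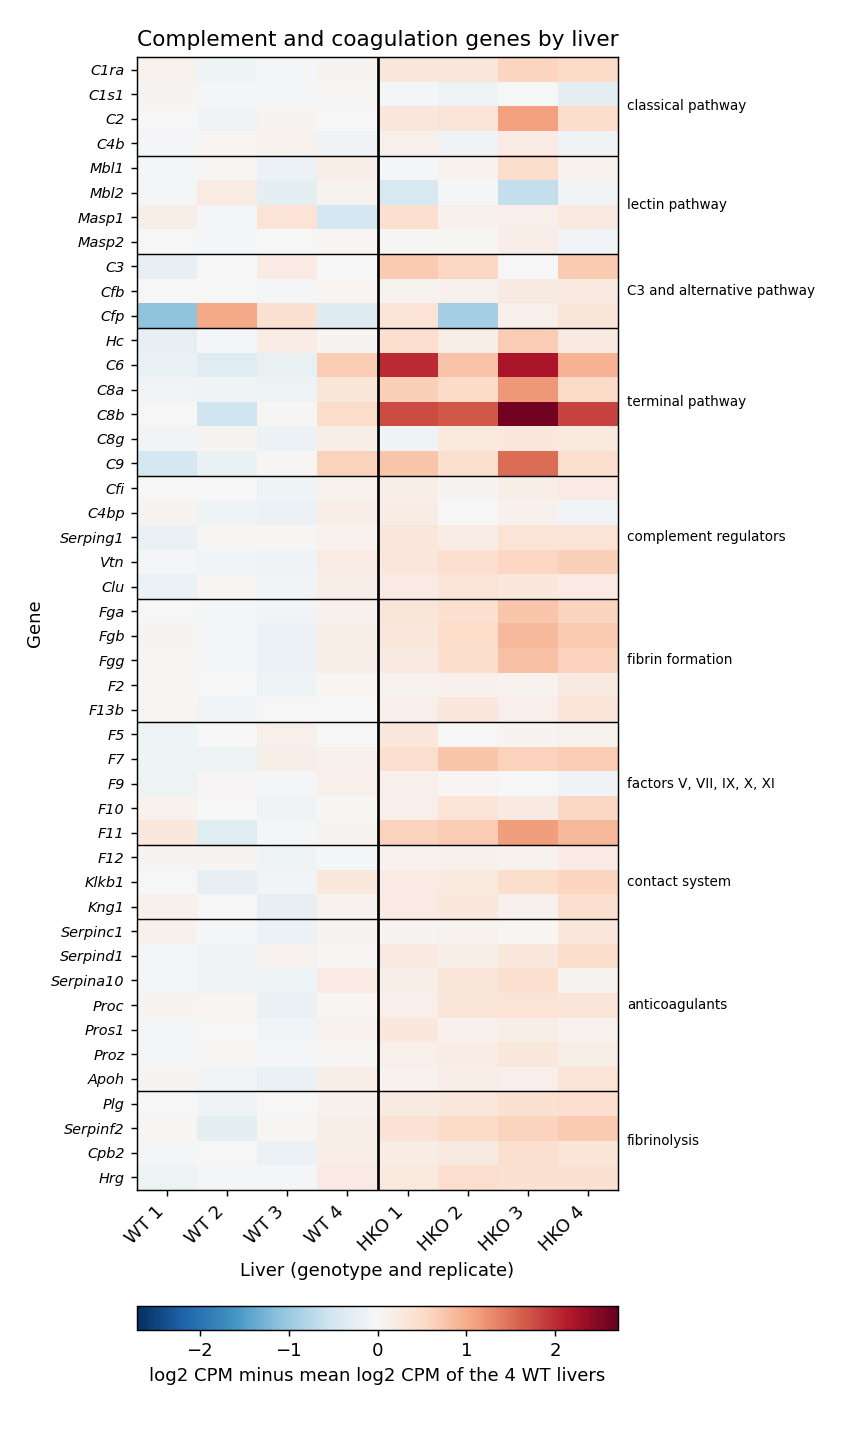
Heat map of 46 complement and coagulation genes (rows, grouped by role) in 4 WT and 4 HKO livers (columns). Colour is log2 CPM in that liver minus the mean log2 CPM of the 4 WT livers, red for higher and blue for lower. C8b and C6 are the darkest rows in HKO, and Mbl2 is blue in HKO replicates 1 and 3.

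For 26 of the 46 genes each HKO liver lay above each WT liver, and for 0 the reverse held. Over all genes tested, 5.34% had every HKO liver above every WT liver and 7.19% every HKO liver below. DESeq2 called 25 of the 46 higher and 0 lower, with 3.11% of all genes higher by the same tool. Beyond the 11, these were C2, C3, Hc, C6, Serping1, Clu, F13b, F10, Klkb1, Serpind1, Proc, Proz, Cpb2 and Hrg, with DESeq2 adjusted p between 0.00235 and 0.0480. The tool limma-voom called 13 higher and 0 lower, with 1.61% of all genes higher. Without WT replicate 1, 2 or 3 the count of 11 became 5, 4 and 5, and without HKO replicate 4 it became 5, while the calls over all genes that were higher also fell, from 206 to 74, 61, 159 and 125. The 4 genes C8b, F7, F11 and Serpinf2 remained called in each of the 8 fits that left out a liver.

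Markers of liver cell types were read from the same fit. Of 7 hepatocyte markers tested 2 rose (1.66% of all genes), Ahsg by 0.65 and Cps1 by 1.26 on the log2 scale. The other log2 fold changes were 0.49 for Apoa1, 0.13 for Asgr1, -0.03 for albumin (Alb), -0.08 for Ttr and -0.11 for Apob, with adjusted p between 0.155 and 0.967 (edgeR). Markers of Kupffer cells and macrophages (0 of 8 called) summed to between 86.6 and 229.5 CPM in WT and between 64.3 and 215 CPM in HKO. Hepatic stellate cell markers (0 of 8 called) summed to 442 to 534 CPM in WT and 391 to 580 CPM in HKO, and sinusoidal endothelial markers (0 of 8 called) to 115 to 369 CPM and 186 to 428 CPM, with a positive log2 fold change for 7 of the 8 endothelial markers and a median of 0.51. The cholangiocyte marker Krt19 was at 16.9 CPM in HKO replicate 2 and at no more than 1.07 CPM in the other livers, and that list summed to 112 CPM there against at most 53.2 CPM elsewhere. Neutrophil markers summed to at most 9.03 CPM, platelet markers to at most 5.41 CPM and T and B cell markers to at most 3.15 CPM in any liver. The part of these markers in the differences below was not tested. In bulk liver, more cells of a type and more RNA per cell cannot be told apart.

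Together the 46 transcripts took 3.86%, 3.99%, 4.18% and 4.26% of all counts in WT replicates 1 to 4 and 4.78%, 5.06%, 5.23% and 5.11% in HKO replicates 1 to 4. The ranges did not overlap, with means of 4.07% ± 0.182 in WT and 5.05% ± 0.191 in HKO (SD, n = 4 each). Levels per length differed widely among the genes. On the CPM per kb scale in WT, Apoh (β2-glycoprotein I) stood at 1838, Fga at 1557, Fgg at 1484, Fgb at 962, Plg at 763 and C3 at 759. At the low end were Cfp (properdin) at 6.52, Masp1 at 9.60, C2 at 15.7, F7 at 21.1 and F11 at 28.6. Among the called genes, F7 and F11 were thus low in level, and Fga, Fgb, Fgg and Plg among the most abundant.

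The plot of fold changes by role gives the difference and its error for each gene.

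**Figure D2:**
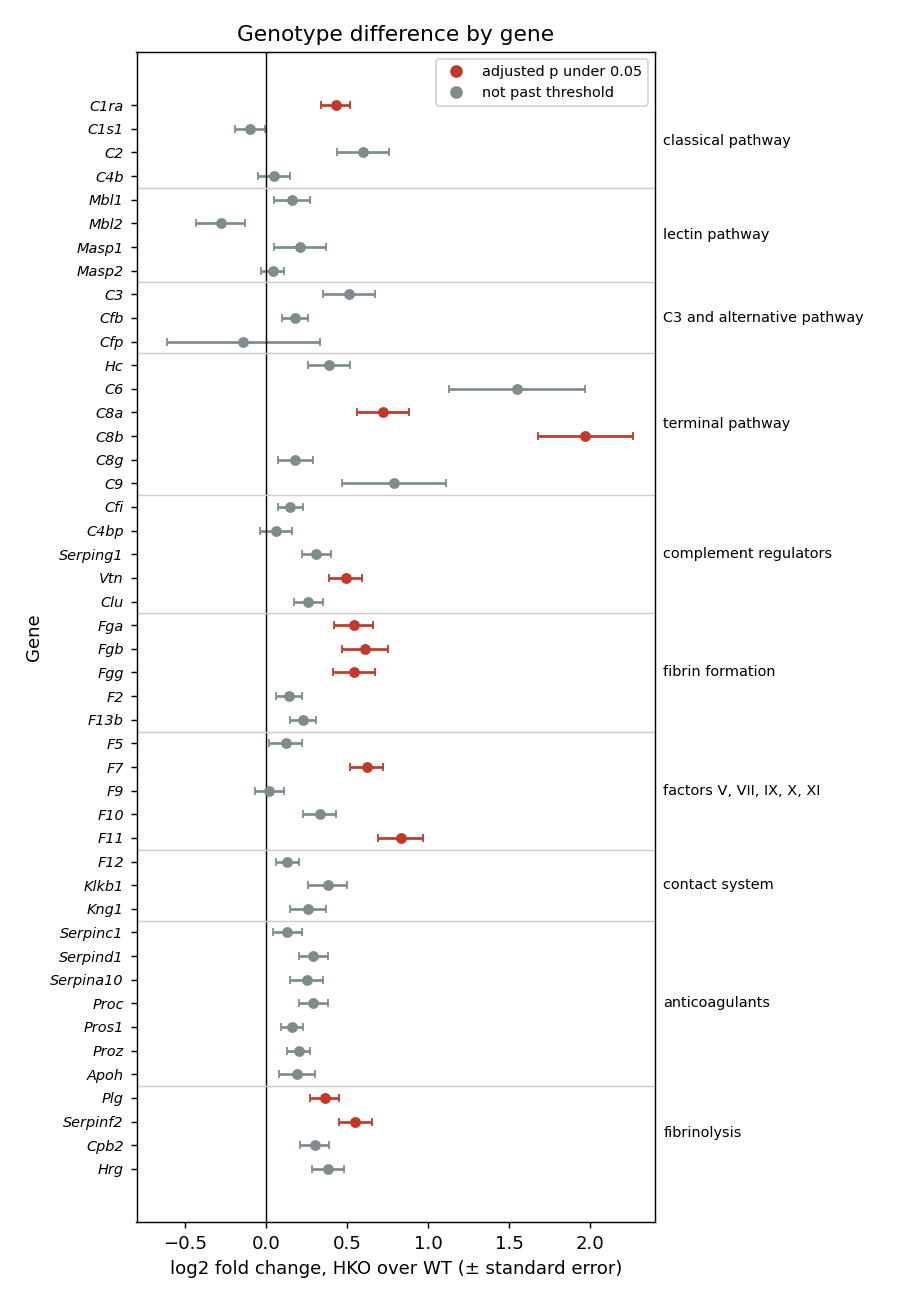
Log2 fold change of HKO over WT (x axis) with its standard error (bars) for each of the 46 genes, grouped by role, from the edgeR fit on 4 livers per genotype. Red points are the 11 genes with an adjusted p under 0.05, and C8b at 1.97 lies farthest to the right.

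In the terminal complement pathway, 2 of 6 genes rose (1.66% of all genes), C8b and C8a, and the median log2 fold change of the group was 0.76. C8 is built of α, β and γ chains, encoded by C8a, C8b and C8g. C8a (chr4:104815680-104876398, - strand) and C8b (chr4:104766317-104804548, + strand) are neighbours. The β chain, which joins C8 to the growing C5b-7 complex, had the largest change of all 46 genes. C8b was at 91.8, 61.99, 92.4 and 128 CPM in WT replicates 1 to 4 and at 306, 288, 554 and 323 CPM in HKO replicates 1 to 4. The lowest HKO liver was above the highest WT liver by more than the whole WT range, and HKO replicate 3 stood apart from the other HKO livers. Means were 93.6 ± 27.1 CPM in WT and 368 ± 125 CPM in HKO (SD, n = 4 each), and the log2 fold change was 1.97 ± 0.29 (SE, adjusted p = 0.0123, edgeR). Leaving out any 1 liver gave values between 1.71 and 2.16.

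C8a encodes the chain that inserts into the membrane with C9. Its values were 547, 538, 523 and 728 CPM in WT and 906, 832, 1297 and 822 CPM in HKO. The groups did not overlap, and the highest livers were WT replicate 4 and HKO replicate 3. The log2 fold change was 0.72 ± 0.16 (SE, adjusted p = 0.0304, edgeR), and the call was kept in 4 of the 8 fits without 1 liver, being lost without WT replicate 1, 2 or 3 or HKO replicate 1. C8g, whose product is the small lipocalin-like γ chain, overlapped between genotypes, at 137, 153, 129 and 162 CPM in WT and 134, 174, 177 and 173 CPM in HKO (log2 fold change 0.18 ± 0.11, adjusted p = 0.400, edgeR). C8g overlaps Fbxw5 on the opposite strand, and whether strand was used in counting was not given in the sources used here.

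The make-up of the C8 transcripts therefore differed between genotypes, as the plot of chain shares shows. Per kb of transcript, C8b was 13.97%, 9.55%, 14.7% and 15.1% of the 3 chains in WT and 28.1%, 26.4%, 33.6% and 28.9% in HKO. Since the 3 shares sum to the whole, those of the other chains together had to be smaller in HKO. C8g held 35.1% ± 3.13 in WT and 22.7% ± 4.19 in HKO, at mean levels of 146 and 164 CPM, and C8a held 51.6% ± 0.902 and 48.0% ± 2.55 (SD, n = 4 each). These shares were not tested separately from the single genes.

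Promoters of C8a and C8b are printed because the 2 neighbours rose together by unequal amounts. Each is 250 bases before and 50 after the annotated start, from RefSeq on GRCm38.p6, in the direction of transcription. Capitals mark matches, on either strand, to any of 5 motifs: the HNF4 site CAAAGTCCA, the C/EBP site TTGCNNAA, the STAT site TTCNNNGAA, the IL-6 response element CTGGGAA and the TATA box TATAAA. The STAT and IL-6 motifs can cover the same bases.

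C8a, chr4:104876349-104876648, - strand: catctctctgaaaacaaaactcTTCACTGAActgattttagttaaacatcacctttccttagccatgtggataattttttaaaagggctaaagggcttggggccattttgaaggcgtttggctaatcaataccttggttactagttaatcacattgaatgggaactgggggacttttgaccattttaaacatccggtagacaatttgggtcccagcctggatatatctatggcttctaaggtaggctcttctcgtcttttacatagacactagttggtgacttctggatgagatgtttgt
C8b, chr4:104766067-104766366, + strand: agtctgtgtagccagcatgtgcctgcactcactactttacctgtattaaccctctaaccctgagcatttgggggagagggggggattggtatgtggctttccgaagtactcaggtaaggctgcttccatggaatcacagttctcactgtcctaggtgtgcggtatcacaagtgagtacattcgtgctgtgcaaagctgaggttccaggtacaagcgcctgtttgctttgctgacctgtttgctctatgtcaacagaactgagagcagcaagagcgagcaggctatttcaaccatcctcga

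C8a held 1 STAT match, which begins 228 bases before the start, and C8b held no match to any of the 5.

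Among the other genes of the pore, C6 had the next largest difference. Its product binds C5b and starts the complex. C6 was at 86.9, 78.1, 85.6 and 158 CPM in WT and at 393, 167.1, 451 and 187 CPM in HKO. All HKO livers exceeded all WT livers, but HKO replicates 2 and 4 lay close to WT replicate 4. With this spread the log2 fold change of 1.55 ± 0.42 had an adjusted p of 0.0970 by edgeR, whereas DESeq2 gave 0.00737 and limma-voom 0.0321. C9, which polymerises to form the wall of the pore, was at 484, 595, 682 and 1039 CPM in WT and 1128, 909, 1903 and 917 CPM in HKO. The groups overlapped through WT replicate 4 (log2 fold change 0.79 ± 0.32, adjusted p = 0.223, edgeR). The log2 fold change of C9 was 0.49 without HKO replicate 3 and 1.05 without WT replicate 4. It was called in 0 of the 8 fits that left out a liver. Hc, the mouse C5 gene, had 1 overlapping pair of livers and a log2 fold change of 0.39 (adjusted p = 0.121, edgeR). HKO replicate 3 was the highest of all livers for Hc, C6, C8a, C8b, C8g and C9. The panels of terminal genes show this, with WT replicate 4 at the top of the WT livers in each panel but that of Hc.

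**Figure D3:**
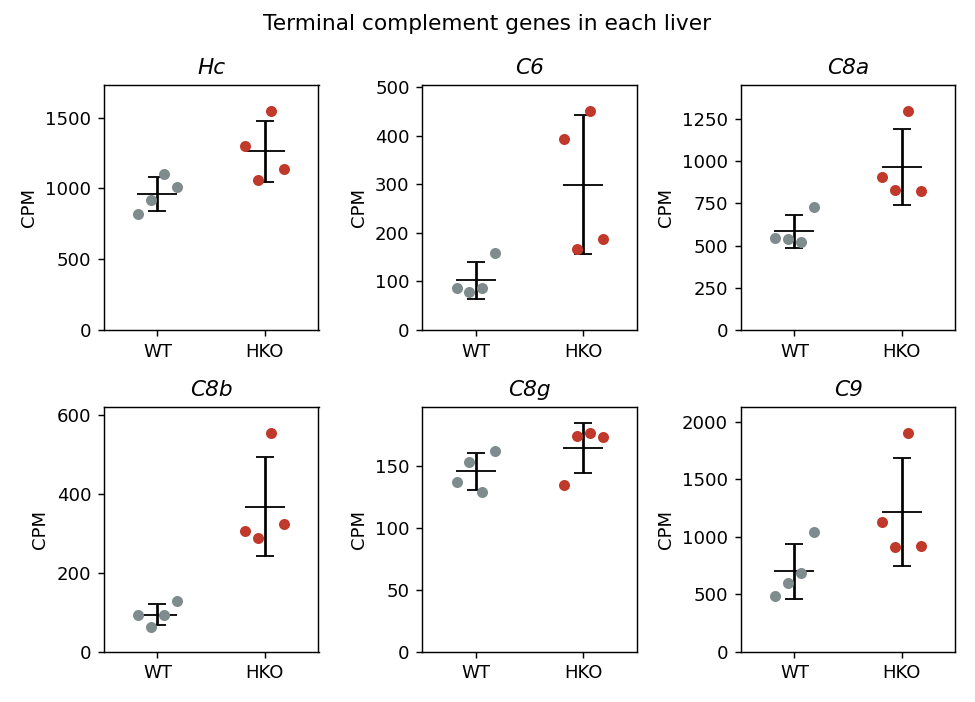
CPM in each liver for 6 terminal complement genes, WT in grey and HKO in red, with points in replicate order, the mean as a horizontal line and the SD (n = 4) as a bar. C8a, C8b and C6 do not overlap between genotypes, while Hc, C8g and C9 do.

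In the classical pathway, which C1 starts on bound antibody, 1 of 4 genes rose (1.66% of all genes). C1ra, on chromosome 6, encodes C1r, the protease that activates C1s. It was at 284, 245, 256 and 280 CPM in WT and 330, 329, 398 and 380 CPM in HKO, without overlap. The log2 fold change was 0.43 ± 0.09 (SE, adjusted p = 0.0207, edgeR), lost without WT replicate 2 or HKO replicate 4. C2, which supplies the protease of the C3 convertase, was at 43.9, 40.8, 45.9 and 43.8 CPM in WT and 54.2, 55.8, 93.6 and 60.4 CPM in HKO. No HKO liver reached down to WT, and HKO replicate 3 was far above the rest. The log2 fold change of 0.60 ± 0.16 did not pass the test (adjusted p = 0.0628, edgeR), while DESeq2 gave 0.00845. Without HKO replicate 1 the log2 fold change was 0.68 and without HKO replicate 3 it was 0.38, and edgeR called C2 in these fits. C1s1 and C4b, which encode C1s and C4, overlapped, at -0.10 and 0.05 on the log2 fold change scale. C1ra, C1s1 and C4b have close paralogs (C1rb, C1s2, C4a), and their values were fractional in all 8 livers, so reads may have been divided between copies and these 3 values are uncertain. Fractional values, whose source was not examined further, occurred in at least 1 liver for 21 of the 46 genes and in all 8 livers for 10, and the called genes among the 21 were C1ra, C8a, C8b, Fga and Fgg.

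Of the lectin pathway, 0 of 4 genes passed the test (1.66% of all genes higher, 3.37% lower), 0 at an unadjusted p under 0.05 (9.08% higher) and 0 by DESeq2 (3.11% higher), and all 4 overlapped, as did most genes tested. Mbl2, a mannose-binding lectin, had the largest difference here and the lowest log2 fold change of all 46 genes. It was at 333, 398, 283 and 364 CPM in WT and 254, 334, 218 and 327 CPM in HKO, a log2 fold change of -0.28 ± 0.15 (adjusted p = 0.331, edgeR). Mbl1 (0.16), Masp1 (0.21) and Masp2 (0.04), the second lectin and the proteases bound to such lectins, had log2 fold changes above 0 with adjusted p between 0.493 and 0.849 (edgeR).

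Neither C3 nor the alternative pathway genes passed the test (1.66% of all genes higher, 3.37% lower). Of these 3 genes, 2 had an unadjusted p under 0.05 by edgeR (9.08% of all genes higher). DESeq2 called 1 of them (3.11%). C3, on which all routes converge, was at 3317, 3923, 4531 and 3827 CPM in WT and 6283, 5706, 3883 and 6292 CPM in HKO. HKO replicates 1, 2 and 4 were above every WT liver, and HKO replicate 3, the highest liver for the terminal genes, lay within the WT range. The log2 fold change of C3 was 0.51 ± 0.16 (adjusted p = 0.0956, edgeR; 0.0181 by DESeq2). Cfb, the protease of the alternative convertase, was at 751, 763, 736 and 792 CPM in WT and 816, 826, 898 and 903 CPM in HKO, without overlap, and the log2 fold change was 0.18 ± 0.08 (adjusted p = 0.235, edgeR). Cfp, whose product stabilises that convertase and is made largely by leukocytes, ran from 4.38 to 18.7 CPM in WT and from 4.94 to 12.01 CPM in HKO. WT replicate 1 and HKO replicate 2 were lowest in Cfp and also in the summed macrophage markers, at 86.6 and 64.3 CPM.

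Of 5 complement regulators, 1 rose (1.66% of all genes). Vtn encodes vitronectin, which blocks insertion of the membrane attack complex and also mediates cell adhesion. It was at 1078, 1043, 1036 and 1280 CPM in WT and 1372, 1512, 1623 and 1719 CPM in HKO, without overlap (log2 fold change 0.49 ± 0.10, adjusted p = 0.0229, edgeR). The call was lost without WT replicate 1, 2 or 3 or HKO replicate 4. Serping1, the C1 inhibitor, was at 426, 492, 489 and 513 CPM in WT and 588, 549, 618 and 616 CPM in HKO. Its groups did not overlap, and the log2 fold change was 0.31 ± 0.09 (adjusted p = 0.0649, edgeR; 0.00657 by DESeq2). Clu (clusterin) was at 769, 894, 821 and 977 CPM in WT and 998, 1095, 1048 and 1010 CPM in HKO, where the gap between the groups was small (log2 fold change 0.26 ± 0.09, adjusted p = 0.140, edgeR). Cfi and C4bp, which cut and bind C3b and C4b, overlapped, at 0.15 and 0.06 on the log2 fold change scale.

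In fibrin formation 3 of 5 genes rose (1.66% of all genes), and 4 of 5 were called by DESeq2 (3.11%). Fibrinogen consists of Aα, Bβ and γ chains encoded by Fga, Fgb and Fgg, which lie side by side on chromosome 3 (Fgg at chr3:83007724-83015056, Fga at chr3:83026153-83033617 and Fgb at chr3:83042246-83049863). Fga was at 4738, 4499, 4421 and 5084 CPM in WT and 5879, 6350, 7814 and 7149 CPM in HKO. Fgb was at 3825, 3507, 3250 and 4073 CPM in WT and 4486, 5174, 6716 and 5950 CPM in HKO. Fgg was at 3153, 2969, 2790 and 3509 CPM in WT and 3672, 4305, 5367 and 4751 CPM in HKO. In all 3 genes the groups did not overlap, and the HKO livers had the same order, with replicate 3 highest and replicate 1 lowest. The log2 fold changes were 0.54 ± 0.12 for Fga, 0.61 ± 0.14 for Fgb and 0.54 ± 0.13 for Fgg, with adjusted p of 0.0229, 0.0263 and 0.0348 (SE, edgeR). These calls were sensitive to single livers, being kept in 4, 3 and 2 of the 8 fits that left one out, and all 3 were lost without WT replicate 1, 2 or 3 or HKO replicate 4, while Fgb and Fgg were also lost without HKO replicate 3 and Fgg without HKO replicate 2.

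In contrast to C8, the shares of the fibrinogen chains moved little. Per kb, Fga was 39.0% ± 0.904 of the 3 chains in WT and 38.5% ± 1.06 in HKO, Fgb 24.0% ± 0.511 and 24.8% ± 0.605, and Fgg 37.0% ± 0.558 and 36.7% ± 0.588 (SD, n = 4 each). Fibrinogen transcripts as a whole took 1.18% ± 0.0526 of all counts in WT and 1.63% ± 0.212 in HKO, a difference of 0.457 percentage points that is part of the 0.972 points by which all 46 genes differed.

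**Figure D4:**
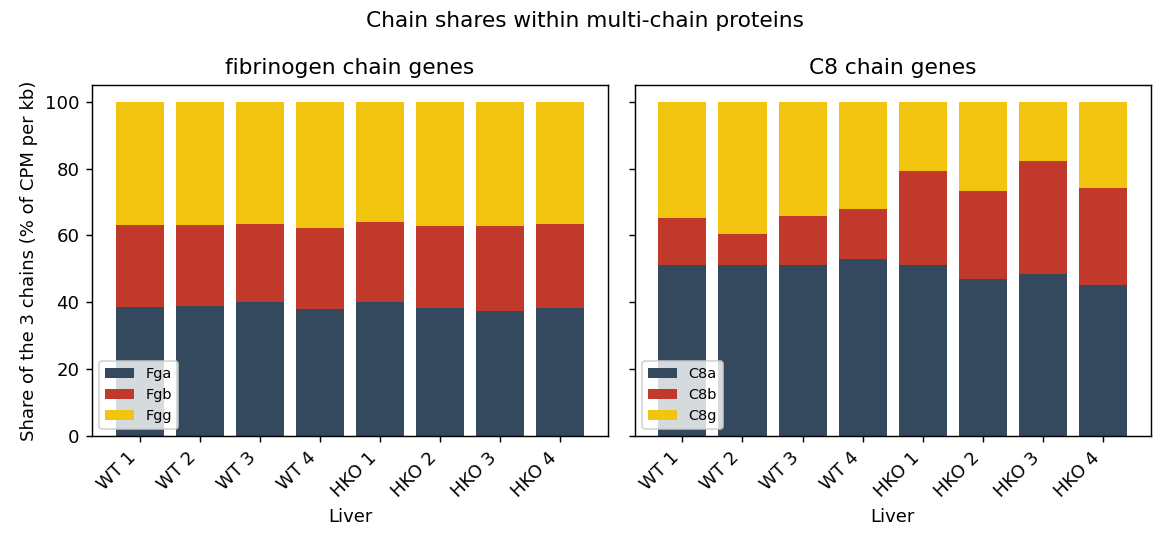
Share of each chain (stacked bars, percent of summed CPM per kb) among the 3 fibrinogen genes and the 3 C8 genes in each liver. The fibrinogen bars look alike in all 8 livers, while the C8b segment (red) is wider in the HKO livers, at 26.4% to 33.6% against 9.55% to 15.1% in WT.

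The promoters of the fibrinogen genes are shown with the same 5 motifs in capitals, since the 3 genes moved together and fibrinogen is a known IL-6 target.

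Fga, chr3:83025903-83026202, + strand: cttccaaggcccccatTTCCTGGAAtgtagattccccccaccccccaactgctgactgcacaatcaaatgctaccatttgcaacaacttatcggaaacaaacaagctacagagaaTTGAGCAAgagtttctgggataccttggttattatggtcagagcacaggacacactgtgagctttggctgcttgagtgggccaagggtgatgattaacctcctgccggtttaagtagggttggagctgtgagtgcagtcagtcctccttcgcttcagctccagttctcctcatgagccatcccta
Fgb, chr3:83049814-83050113, - strand: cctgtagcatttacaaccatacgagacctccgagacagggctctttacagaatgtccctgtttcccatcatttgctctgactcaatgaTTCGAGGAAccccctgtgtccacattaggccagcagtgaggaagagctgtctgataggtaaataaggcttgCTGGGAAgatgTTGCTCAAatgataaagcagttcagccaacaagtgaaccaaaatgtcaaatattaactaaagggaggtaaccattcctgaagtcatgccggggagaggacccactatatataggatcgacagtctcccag
Fgg, chr3:83007474-83007773, + strand: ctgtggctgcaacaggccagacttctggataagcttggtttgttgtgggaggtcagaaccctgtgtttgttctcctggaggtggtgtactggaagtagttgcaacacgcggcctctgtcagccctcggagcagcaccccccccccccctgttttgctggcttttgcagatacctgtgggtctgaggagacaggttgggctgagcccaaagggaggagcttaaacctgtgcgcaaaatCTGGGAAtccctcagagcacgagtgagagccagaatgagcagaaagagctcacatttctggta

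C/EBP matches began 135 and 80 bases, and STAT matches 234 and 162 bases, before the starts of Fga and Fgb. The IL-6 element began 91 bases before the start of Fgb and 13 bases before that of Fgg, in which no other motif of the 5 matched.

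A promoter was matched for 35 of the 46 genes, among them 10 of the 11 called. Those with none matched were C2, C4b, Masp1, Cfb, Cfi, Serping1, Clu, Kng1, Serpina10, Proc and Plg. The C/EBP letters were in 12 of the 35 and 4 of the 10 called, against 10.8% of 32851 promoters of the same length, and the STAT letters in 8 and 5 (8.30%). The IL-6 element was in 7 and 4 (11.1%) and the TATA box in 5 and 1 (13.6%), while the 9-letter HNF4 site was in 0 and 0 (0.475%). The 32851 promoters were not limited to genes tested here. Some matches lay after the start, among them the STAT matches of C1ra and Vtn, which began 32 and 35 bases after it. These counts describe letters in a window of 300 bases, and the promoters of C8b, F7 and Serpinf2, 3 of the 4 calls kept in every fit without a liver, held no match to any of the 5.

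The other genes of fibrin formation did not pass the test. F2 (prothrombin) was at 1085, 1045, 965 and 1091 CPM in WT and 1120, 1135, 1112 and 1232 CPM in HKO, a narrow separation, and the log2 fold change was 0.14 ± 0.08 (adjusted p = 0.409, edgeR). F13b, the carrier subunit of the enzyme that crosslinks fibrin, was at 336, 309, 327 and 329 CPM in WT and 358, 402, 360 and 411 CPM in HKO. Its groups did not overlap (log2 fold change 0.23 ± 0.08, adjusted p = 0.119, edgeR).

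Upstream of thrombin, F7 and F11 rose, 2 of the 5 genes for factors V, VII, IX, X and XI (1.66% of all genes). F7, whose product starts coagulation with tissue factor, was at 35.8, 35.3, 43.3 and 42.5 CPM in WT and 53.2, 65.5, 59.8 and 62.8 CPM in HKO. The gap between the groups was wider than the range of the WT livers, and the adjusted p of 0.00544 (edgeR) was the lowest of the 46 genes, at a log2 fold change of 0.62 ± 0.10. F11, the factor XI gene, which amplifies thrombin formation, was at 76.8, 50.7, 61.8 and 67.2 CPM in WT and 97.1, 103, 139 and 118 CPM in HKO. It had the third largest log2 fold change, 0.83 ± 0.14 (adjusted p = 0.00953, edgeR), after C8b and C6. F10, which lies next to F7 on chromosome 8, was at 308, 288, 270 and 295 CPM in WT and 318, 372, 344 and 425 CPM in HKO, without overlap, at 0.33 ± 0.10 (adjusted p = 0.0759, edgeR). F5 and F9 overlapped, at 0.12 and 0.02. F5 overlaps Gm16548 on the opposite strand.

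**Figure D5:**
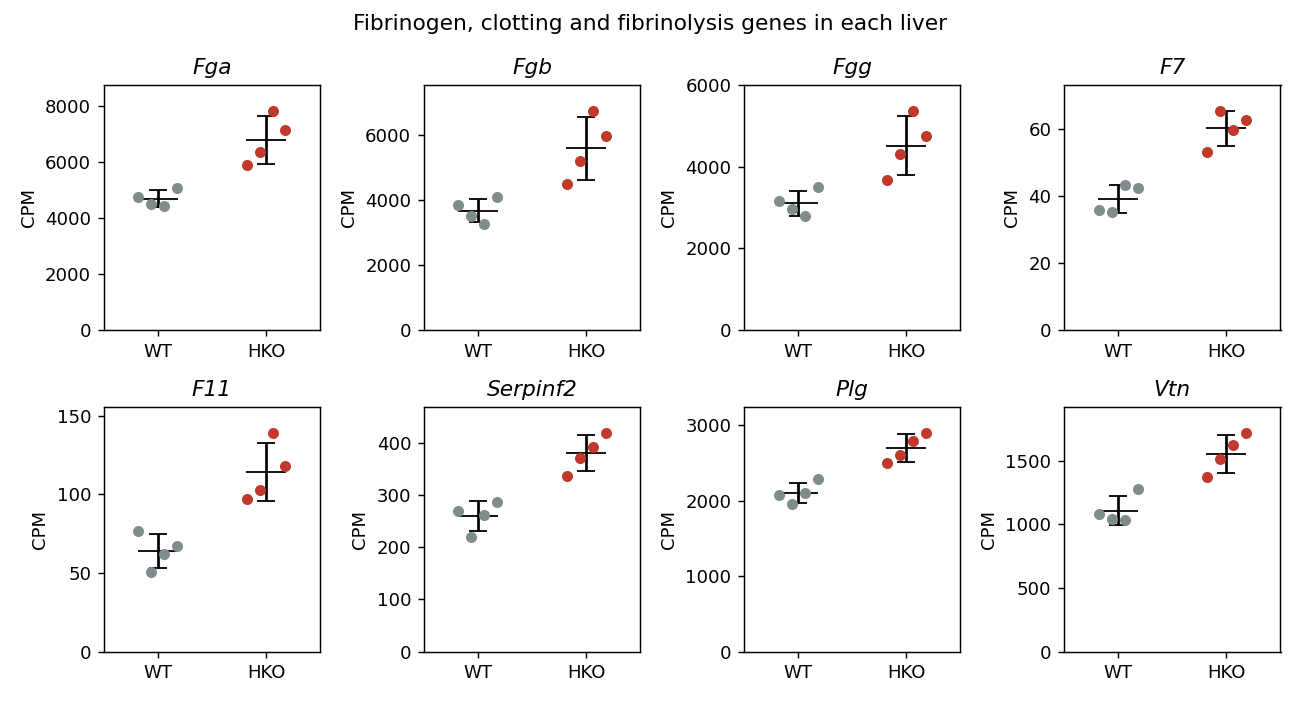
CPM in each liver for 8 of the called genes, WT in grey and HKO in red, with points in replicate order, the mean as a horizontal line and the SD (n = 4) as a bar; each axis starts at 0. No WT point reaches the lowest HKO point in any panel.

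Of the contact system, in which factor XII, kallikrein and kininogen act on surfaces, 0 of 3 genes were called, 2 at an unadjusted p under 0.05 (9.08% of all genes) and 1 by DESeq2 (3.11%). F12 was at 155.01, 153, 136 and 144 CPM in WT and 157, 160, 157 and 171 CPM in HKO, a difference of 0.13 ± 0.07 on the log2 scale whose groups just failed to touch (adjusted p = 0.355, edgeR). Klkb1, the plasma kallikrein gene beside F11, had the largest difference of the 3. It was at 500, 422, 469 and 599 CPM in WT and 577, 592, 684 and 738 CPM in HKO, so WT replicate 4 lay among the HKO livers (log2 fold change 0.38 ± 0.12, adjusted p = 0.0986, edgeR). Kng1 (kininogen), which has the paralog Kng2 and fractional values in all 8 livers, overlapped at 0.26.

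The 7 anticoagulant genes had small positive differences, from 0.13 to 0.29 on the log2 fold change scale, and 0 were called, with 5 at an unadjusted p under 0.05 (9.08% of all genes) and 3 by DESeq2 (3.11%). Serpind1 (heparin cofactor II) was at 510, 491, 561 and 535 CPM in WT and 616, 584, 639 and 731 CPM in HKO (0.29 ± 0.09, adjusted p = 0.0920, edgeR; 0.0204 by DESeq2), and it overlaps Pi4ka on the opposite strand. Proc (protein C) was at 207, 203, 173 and 202 CPM in WT and 216, 246, 254 and 247 CPM in HKO (0.29 ± 0.09, adjusted p = 0.0754, edgeR). Pros1, the gene for its cofactor protein S, was at 95.1, 98.6, 92.4 and 103 CPM in WT and 118, 105, 108.2 and 105 CPM in HKO (0.16 ± 0.07, adjusted p = 0.250, edgeR). For Proz (protein Z) the values were 312, 326, 307 and 323 CPM in WT and 350, 366, 389 and 352 CPM in HKO (0.20 ± 0.07, adjusted p = 0.144, edgeR). These 4 genes did not overlap between genotypes. Serpinc1 (antithrombin), Serpina10 (the inhibitor that protein Z assists) and Apoh did overlap, with log2 fold changes of 0.13, 0.25 and 0.19.

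Of the 4 fibrinolysis genes 2 were called (1.66% of all genes) and in all 4 each HKO liver exceeded each WT liver (5.34% of all genes). Plg, the precursor of plasmin, was at 2072, 1962, 2100 and 2284 CPM in WT and 2501, 2603, 2792 and 2898 CPM in HKO. Its log2 fold change was 0.36 ± 0.09 with an adjusted p of 0.0498 (edgeR), just under the threshold, and it was called in 1 of the 8 fits that left out a liver, the fit without WT replicate 4. Serpinf2, which inhibits plasmin, was at 268, 219, 262 and 286 CPM in WT and 337, 371, 391 and 418 CPM in HKO (0.55 ± 0.10, adjusted p = 0.0112, edgeR). Thus transcripts for both the plasmin precursor and the main plasmin inhibitor were higher in HKO livers. Hrg, a plasma protein that binds plasminogen and heparin, was at 968, 1035, 1038 and 1243 CPM in WT and 1273, 1460, 1414 and 1418 CPM in HKO, just over the threshold at an adjusted p of 0.0508 (edgeR; log2 fold change 0.38 ± 0.10) and called by DESeq2 (0.00235) and limma-voom (0.0461). Cpb2, which protects fibrin from plasmin, was at 393, 405, 360 and 456 CPM in WT and 461, 478, 543 and 501 CPM in HKO (0.30 ± 0.09, adjusted p = 0.0942, edgeR).

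By cascade, 4 of the 22 complement genes and 7 of the 24 coagulation and fibrinolysis genes were called higher (1.66% of all genes), with median log2 fold changes of 0.23 and 0.29. The difference between the cascades was not tested. Livers ranked alike across many genes on TMM-scaled CPM. WT replicate 4 was the highest WT liver for 26 of the 46 genes and WT replicate 3 the lowest for 22. Among HKO livers replicate 3 was highest for 21 and replicate 1 lowest for 21. WT replicate 3 had the largest TMM factor of all livers (1.099). Its unscaled share of counts for the 46 genes, 4.18%, was above those of WT replicates 1 and 2 (3.86% and 3.99%).

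Other genes of the same pathways, mostly receptors, cell-surface regulators and factors made outside hepatocytes, were read from the same fit. Of 67 on the list 64 were in the table and 51 were tested, with 2 higher (3.92%) and 3 lower, against 1.66% and 3.37% of all genes, and with a median log2 fold change of 0.06. Cpn2, the regulatory subunit of carboxypeptidase N, which inactivates C3a and C5a, was at 259, 251, 299.7 and 298 CPM in WT and 434, 415, 401 and 364 CPM in HKO (0.54 ± 0.09, adjusted p = 0.00723, edgeR). Serpine2 (protease nexin 1, a thrombin inhibitor) was at 6.45, 4.61, 6.56 and 10.6 CPM in WT and 32.0, 18.4, 32.8 and 17.3 CPM in HKO (1.83 ± 0.31, adjusted p = 0.0169, edgeR).

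Of the genes that fell, 2 are described. S100a10, the partner of annexin A2 in binding plasminogen at cell surfaces, was at 189, 174, 133 and 171 CPM in WT and 95.2, 102, 64.2 and 69.0 CPM in HKO (-1.01 ± 0.16, adjusted p = 0.00970, edgeR). Tfpi2, a Kunitz-type inhibitor of plasmin and other proteases, was at 162, 154, 120 and 157 CPM in WT and 102, 103, 96.1 and 99.5 CPM in HKO (-0.56 ± 0.10, adjusted p = 0.00842, edgeR). Neither overlapped between genotypes. Factor VIII (F8), made by endothelial cells, ran from 7.16 to 46.9 CPM in WT and 12.6 to 57.1 CPM in HKO, highest in WT replicate 3 and HKO replicate 1, the livers that were highest of their groups in the summed endothelial markers.

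Among 16 transcription factors and signalling genes of hepatocyte and acute phase expression, 3 rose and 0 fell, against 1.66% and 3.37% of all genes. Stat3, the transcription factor activated by IL-6, was at 53.7, 63.0, 65.0 and 54.9 CPM in WT and 85.8, 96.5, 81.5 and 88.7 CPM in HKO (0.57 ± 0.09, adjusted p = 0.00496, edgeR). Hnf4a, a nuclear receptor of hepatocyte identity, was at 441, 438, 471 and 435 CPM in WT and 633, 559.7, 499 and 594 CPM in HKO (0.36 ± 0.09, adjusted p = 0.0406, edgeR), with the call kept in 1 of the 8 fits without a liver. Hnf4a overlaps Hnf4aos on the opposite strand, and its values were fractional in all 8 livers. Nr5a2, a nuclear receptor of bile acid and cholesterol genes, was at 70.9, 71.1, 79.8 and 69.5 CPM in WT and 99.6, 91.6, 81.8 and 103 CPM in HKO (0.37 ± 0.09, adjusted p = 0.0368, edgeR; 2 of the 8 fits). The other 13 did not pass the test. Cebpa, which encodes a C/EBP factor, overlapped between genotypes (0.22 ± 0.09, adjusted p = 0.225, edgeR), as did Cebpb (0.00 ± 0.21, adjusted p = 0.996). Of the genes of IL-6 signalling, Socs3 (-0.33 ± 0.30, adjusted p = 0.6, edgeR) and Il6ra (0.51 ± 0.18, adjusted p = 0.156, edgeR) overlapped too. The activity of STAT3 was not measured. HKO replicate 3, highest for the terminal complement genes and fibrinogen, was the lowest HKO liver for Hnf4a, Stat3 and Nr5a2.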

How the data were processed

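Liver RNA from 4 WT and 4 HKO mice was rRNA-depleted and sequenced. The labels also name a small RNA kit, so the type of library is uncertain. Per the labels, reads were processed with STAR and Partek (versions not given), and the authors deposited estimated counts per gene from Partek's expectation-maximization step, before normalization. Reads from paralogs may be divided, giving fractional values.

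Counts were rounded. edgeR 4.0.16 in R 4.3.3 was used with TMM scaling, a minimum count of 10, robust quasi-likelihood fits (legacy method off, a setting fixed after the files were read) and Benjamini-Hochberg adjustment over 12395 genes at a threshold of 0.05. SE was taken as the size of the log2 fold change over the root of its F statistic. CPM uses TMM-scaled libraries. CPM per kb uses the exon union of GENCODE protein-coding transcripts. The edgeR, DESeq2 1.42.0 and limma 3.58.1 fits were tested on simulated counts. At these depths 3 counts, the floor for a 0, correspond to at most 0.255 CPM.

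Coordinates are GRCm38 as listed. Of the listed symbols 17789 matched RefSeq genes and 82.5% of these shared a start or end. For the genes described here, 46 matched and 39 shared one. Python 3.11.15, pandas 2.3.3, numpy 2.4.6 and matplotlib 3.10.9 were used.

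The genes and lists were chosen with earlier results of these data known. Per-liver values are given for each gene with an adjusted p under 0.05, for the gene of each role with the largest absolute log2 fold change and for each gene whose genotypes did not overlap. Of other pathway genes and transcription factors, those called are named, save for results not reported here, with at most 5 further as reference levels. No 2 livers agreed within sampling noise.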

Additional observations from a re-analysis of the deposited data

Results flagged for a closer look

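Single livers were compared with the other three of their genotype for the genes described, and a value was singled out where its gap to the nearest other as a share of the group's range passed Dixon's 95% critical value for 4 samples. Of 116 groups examined 8 had such a liver, where chance gives about 6. C2 was at 93.6 CPM in HKO replicate 3 against 54.2 to 60.4 CPM in the other HKO livers, and C8b at 554 CPM in the same liver against 288 to 323 CPM. C6 was at 158 CPM in WT replicate 4 against 78.1 to 86.9 CPM, and C8a at 728 CPM in that liver against 523 to 547 CPM. C8g was low in HKO replicate 1, at 134 CPM against 173 to 177 CPM. In WT replicate 3, Proc was low at 173 CPM against 202 to 207 CPM, Hnf4a high at 471 CPM against 435 to 441 CPM, and Nr5a2 high at 79.8 CPM against 69.5 to 71.1 CPM.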

How the results depend on the processing

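The 11 genes called higher, beside 206 higher over all genes, became 12 (218 over all genes) with RLE scaling, 10 (119) with total count scaling, 11 (208) with TMM factors made without these genes, 25 (385) with DESeq2, 13 (200) with limma-voom, 12 (185) with no expression filter, 10 (199) with at least 10 counts in every liver and 11 (212) with the legacy quasi-likelihood method, chosen after seeing the data. With each liver left out the count ran from 4 to 14, and the higher calls over all genes from 61 to 230. Calls over all genes in either direction ran from 212 to 598. DESeq2 called 1014 genes in all (385 higher, 629 lower) and 5 other pathway genes higher. With a liver left out, the other pathway genes higher ran from 1 to 5 and those lower from 3 to 5. Over all genes, those lower ran from 151 to 368 in these fits. Total count scaling moved the median of all genes from 0.01 to -0.08, that of these genes from 0.28 to 0.19, and the split of calls to 119 higher and 621 lower. Under it C4b (-0.04), Masp2 (-0.05), C4bp (-0.02) and F9 (-0.07) changed sign, none of them called. With single livers left out, C4b ran from -0.01 to 0.09 and Masp2 from -0.01 to 0.08, both negative without HKO replicate 3. F9 ran from -0.02 to 0.07, negative without WT replicate 1 or HKO replicate 1, and Cfp from -0.39 to 0.27, positive without WT replicate 2 or HKO replicate 2. The causes were not tested.

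Replicate numbers belong to different mice, and the main fit did not pair livers by number. Deviations of same-numbered livers correlated at -0.062 and 0.012 for numbers 1 and 2 and at -0.085 and -0.148 for numbers 3 and 4. These correlations cannot show whether same-numbered mice shared a litter or handling. With the replicate block 7 genes were called higher, with 147 higher and 309 lower over all genes.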
